A study of Mus musculus with 4 samples.

Results

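The BCL2 family decides whether a cell opens the outer membrane of its mitochondria and dies by apoptosis. Of 10 genes chosen by symbol, 9 had rows in the authors' table of 16709 gene symbols, with 16 listed transcripts between them; Pmaip1 was not analysed here. The 9 genes were the effectors Bax, Bak1 and Bok, the BH3-only genes Bbc3, Bid and Bcl2l11, and the anti-apoptotic genes Bcl2, Bcl2l1 and Mcl1. They were measured by RNA sequencing in 3T3-L1 cells, a mouse embryonic fibroblast line committed to the fat lineage and used here as preadipocytes. One group was treated with 25 µM Nutlin-3a, which blocks the binding of p53 to its ubiquitin ligase MDM2, and the other with the DMSO vehicle alone, both for 24 h. Both groups share the line, a medium with serum and no added differentiation signal named in the labels, and each comprised 2 biological replicates.

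In the mitochondrial pathway the family works as a network of binding partners. BH3-only proteins sense damage or loss of growth signals, anti-apoptotic proteins hold BH3-only proteins and effectors in check, and freed effectors form pores through which cytochrome c escapes and starts the caspases. p53 is known to switch on Bbc3, which encodes PUMA, and Bax, and fibroblasts are generally known to answer p53 with arrest more readily than with death.

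The table held 1 FPKM value (fragments per kilobase of transcript, scaled to sequencing depth) for a transcript in each group, with no values of single libraries. All values below are therefore the authors' group values with no replicate error, no test was possible, and higher and lower describe the size of a ratio only. Transcripts were summed per gene. The label higher or lower was given to a gene whose values differed 2-fold or more after 1 FPKM was added to both; ratios on this scale are given as log2 ratios, and folds are plain ratios of FPKM. Among 10331 genes with a mean of at least 1 FPKM and a value above 0 in both groups, 6.62% were called higher and 6.14% lower, and the median log2 ratio was 0.07. The depth of the libraries is unknown. As a check of the treatment, the p53 target Cdkn1a had 386 FPKM with Nutlin-3a and 35.2 FPKM with DMSO. Mdm2, in contrast, had a value of 0 with Nutlin-3a and of 773 FPKM with DMSO. A listed 0 may be an estimate that failed, and the cause of the Mdm2 value was not tested. All 7 preadipocyte or fibroblast markers were present in both groups at 9.14 FPKM or more. Their sum was 1106 FPKM with Nutlin-3a and 1984 FPKM with DMSO, and 4 of the 7 were called lower. Of 5 mature adipocyte markers, Adipoq, Plin1, Lep and Cidec were each below 1 FPKM in both groups, and with Fabp4 the list summed to 9.67 FPKM with Nutlin-3a and 42.1 FPKM with DMSO. Plin1 and Lep were at 0 in DMSO. Markers of blood, endothelium, epithelium and muscle summed to 7.38, 1.62, 0.472 and 4.27 FPKM in Nutlin-3a and to 3.46, 0.0260, 0.139 and 4.90 FPKM in DMSO. Ptprc, Kdr, Epcam, Myod1 and Myog were at 0 in DMSO, and Adgre1 and Cdh5 were not analysed here. The part of these markers in the results below was not tested.

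The upstream sequence is shown for the 3 genes in which a pair of p53-type half-sites was found, since p53 is the factor that the compound releases. RefSeq promoter windows (GRCm38.p6, the assembly of mm10) were matched by symbol for all 9 genes and gave 14 windows, each running from 250 bases before an annotated start to 50 after it. The RefSeq genes of Bbc3, Mcl1 and Bcl2l1 begin further upstream than any of their windows, and those starts were not searched. The authors' Bak1 model also begins upstream of the only Bak1 window, and its start was not searched. Each window was searched for the p53 consensus half-site, a palindromic decamer, so 1 strand covers both. A match was a pair of decamers 0 to 13 bases apart with the C and G of each core kept and at most 3 mismatches over both, a limit chosen after the matches were seen. The capitals mark the decamers in the window at the start that the authors' gene model also uses, for Bbc3 at chr7:16309333-16309632 on the plus strand, for Bax at chr7:45466849-45467148 on the minus strand, and for Bcl2l1 at chr2:152831679-152831978 on the minus strand, each written 5′ to 3′ along its gene.
Bbc3: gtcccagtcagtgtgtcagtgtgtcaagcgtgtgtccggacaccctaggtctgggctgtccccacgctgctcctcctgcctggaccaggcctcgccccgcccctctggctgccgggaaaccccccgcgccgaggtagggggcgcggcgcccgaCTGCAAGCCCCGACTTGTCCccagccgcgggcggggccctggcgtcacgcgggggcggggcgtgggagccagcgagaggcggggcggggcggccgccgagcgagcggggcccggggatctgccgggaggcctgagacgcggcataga
Bax: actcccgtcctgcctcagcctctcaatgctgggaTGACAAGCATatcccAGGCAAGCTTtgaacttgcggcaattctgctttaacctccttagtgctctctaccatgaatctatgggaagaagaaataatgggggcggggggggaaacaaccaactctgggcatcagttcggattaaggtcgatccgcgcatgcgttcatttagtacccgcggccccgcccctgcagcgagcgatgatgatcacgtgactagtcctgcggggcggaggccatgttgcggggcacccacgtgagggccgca
Bcl2l1: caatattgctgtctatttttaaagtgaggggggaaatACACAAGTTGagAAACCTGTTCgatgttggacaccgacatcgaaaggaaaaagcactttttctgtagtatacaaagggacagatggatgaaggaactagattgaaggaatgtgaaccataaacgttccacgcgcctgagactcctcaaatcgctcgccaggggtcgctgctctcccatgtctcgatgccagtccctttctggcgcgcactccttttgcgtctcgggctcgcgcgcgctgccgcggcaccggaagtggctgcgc

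In Bbc3 the decamers touched, with no spacer, and began at positions -97 and -87 from the start, with 3 mismatches between them. Such a touching pair was present in 1.38% of all 32851 windows. In Bax they began at -216 and -201, were 5 bases apart and had 2 mismatches, and the second decamer matched the consensus exactly. A pair with at most 2 mismatches was in 4.09% of windows. In Bcl2l1 they began at -213 and -201 with 3 mismatches and a spacer of 2 bases, and a second Bbc3 start, 678 bases downstream of the first, also had a pair with 3 mismatches. In all, 4 of the 14 windows held a match at this limit, against 15.6% of all windows. That is the share for the search as made, whereas 1.38% and 4.09% are for narrower forms that fit the pairs found. Shares are per window, and Bbc3 and Bcl2l1 had more than 1 window each. The best pairs in the other windows had 4 mismatches (Mcl1, a Bcl2l11 start and a Bcl2l1 start) or more (Bok, Bak1, Bid, Bcl2 and the remaining starts). A match describes letters only; binding was not measured, and the rest of each gene was not searched.

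All 9 genes passed the minimum level and exceeded 1 FPKM in both groups, and they spanned more than 2 orders of magnitude. Bax was the most abundant in both groups and Bcl2 the least. In DMSO the order below Bax was Bid, Bcl2l1, Bak1, Mcl1, Bok, Bcl2l11 and Bbc3, with Bcl2 last. In Nutlin-3a it was Bcl2l1, Bid, Mcl1, Bbc3, Bak1, Bcl2l11 and Bok, with Bcl2 again last. The exchange of Bbc3 and Bok was the widest: Bbc3 stood at rank 7592 of 16709 symbols in DMSO and 3624 in Nutlin-3a, and Bok at 3610 and 7522. With no spread between replicates, neighbours in these orders, such as Bbc3 and Bak1 in Nutlin-3a, cannot be separated.

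**Figure D1:**
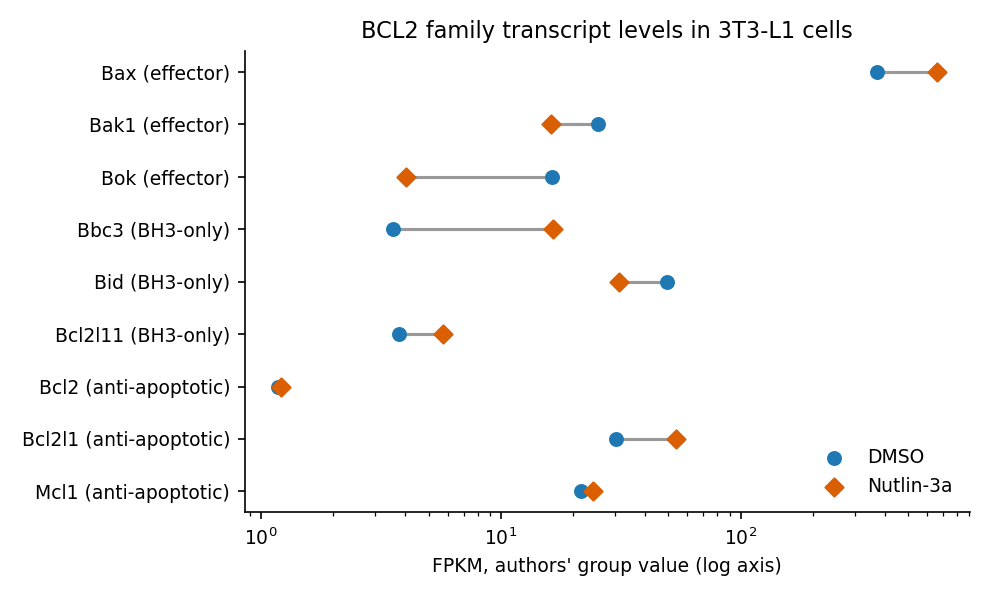
FPKM of the 9 genes on a log axis, with circles for the DMSO group value and diamonds for Nutlin-3a, 1 value per group and no error. Bbc3 (3.56 to 16.5 FPKM) and Bok (16.3 to 4.03 FPKM) have the longest connecting lines and run in opposite directions, while Bcl2 and Mcl1 barely separate.

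The effectors, which form the pore, went different ways. Bax, the cytosolic effector that moves to mitochondria when activated, had 658 FPKM with Nutlin-3a and 370 FPKM with DMSO, a 1.78-fold higher value. Its log2 ratio of 0.83 lay within the limit, and 9.87% of the genes compared had a ratio at least as high. Corrected for GC content, the ratio of Bax was 1.01, just past the limit. Bak1, the effector that resides in the mitochondrial outer membrane, was 1.57-fold lower in Nutlin-3a (16.2 against 25.5 FPKM), with a log2 ratio of -0.62. Bok, a relative of Bax and Bak1 that is held down by protein turnover, was 4.05-fold lower (4.03 against 16.3 FPKM). Its log2 ratio was -1.78, which 0.978% of the genes compared matched or undercut, and it was the gene of the 9 called lower. As listed, there were 40.5 FPKM of Bax for each FPKM of Bak1 in Nutlin-3a and 14.5 in DMSO. Both ratios rest on the Bak1 value, which is uncertain for the reason given below.

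The gene models behind these values were of unequal quality. The Bax model (chromosome 7, 45461695 to 45466898, mm10, listed with 1 transcript) lay within the RefSeq gene and overlapped no other. Its neighbour Ftl1, the ferritin light chain gene, lies 1809 bases away and had 7374 FPKM with Nutlin-3a and 6718 FPKM with DMSO, which made it more abundant than Bax in both groups. The Bok model (chromosome 1, 93685694 to 93695762) also overlapped no other gene. The Bak1 model (chromosome 17, 27018035 to 27036378) was 18344 bases long against 8816 in RefSeq and reached over Ggnbp1, listed at 1.64 and 4.50 FPKM. Its only transcript was of a class that shares junctions with the reference without matching it, so the value of Bak1 is uncertain.

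**Figure D2:**
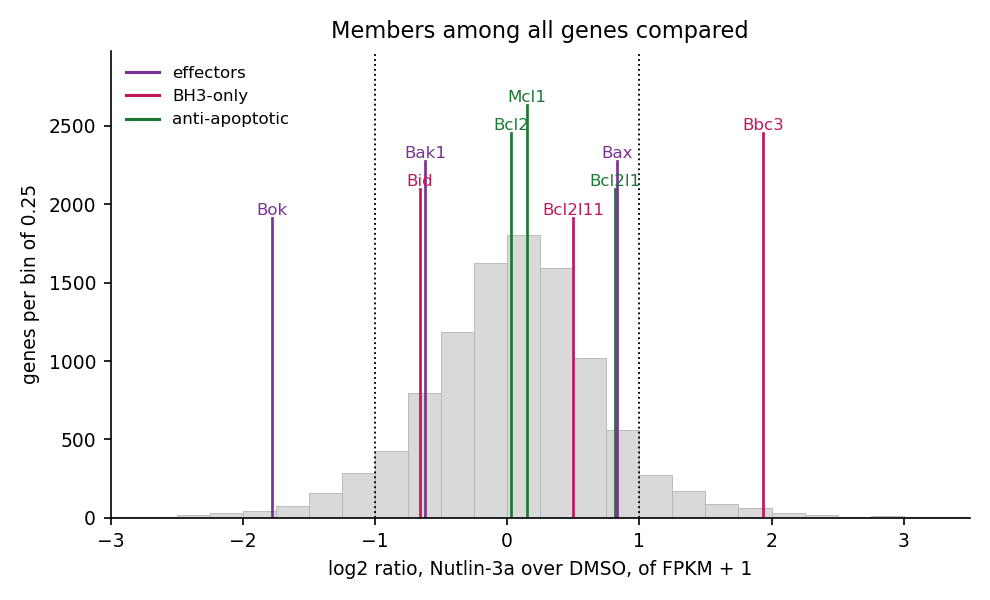
Grey bars count all genes compared by log2 ratio of FPKM + 1 in bins of 0.25 (12 genes beyond the axis are not drawn), coloured lines mark the 9 genes by role, and dotted lines the 2-fold limits. Bbc3 at 1.94 and Bok at -1.78 lie outside the limits and the other 7 genes inside.

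Among the 3 chosen BH3-only genes, Bbc3 stood apart. Bbc3, whose product PUMA binds all main anti-apoptotic members, had 16.5 FPKM with Nutlin-3a and 3.56 FPKM with DMSO, 4.62-fold higher. Its log2 ratio of 1.94 was matched or passed by 0.958% of the genes compared, and it was the gene of the 9 called higher. The Bbc3 model (chromosome 7, 16309583 to 16318334) begins at the start whose sequence is printed above and omits an earlier RefSeq start, so it was 1185 bases shorter than the RefSeq gene. Bid, which caspase-8 cleaves to link death receptors to mitochondria, was 1.597-fold lower in Nutlin-3a (31.0 against 49.6 FPKM, log2 ratio -0.66). Its model lies on chromosome 6 from 120893119 to 120916820, next to the family gene Bcl2l13. In DMSO there were 13.9 FPKM of Bid for each FPKM of Bbc3, and in Nutlin-3a 1.88.

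Bcl2l11, which encodes the BH3-only protein BIM, had 5.72 FPKM with Nutlin-3a and 3.76 FPKM with DMSO in sum, 1.52-fold higher with a log2 ratio of 0.50. The sum joined 5 listed transcripts that did not move together (chromosome 2, 128126038 to 128162547 for the whole model, which overlaps the RefSeq gene Acoxl, listed at 0.0376 and 0.0326 FPKM). The third in the order of the table's identifiers had 2.79 FPKM with Nutlin-3a and 0.0104 FPKM with DMSO, and made up 48.8% and 0.277% of the gene's sum. The second was the reverse, at 0 with Nutlin-3a and 1.89 FPKM with DMSO, where it was 50.3% of the sum. The fifth had 2.01 and 1.42 FPKM, a similar share in both groups (35.1% and 37.8%). The first was listed at 0.883 and 0 FPKM and the fourth at 0.0385 and 0.434 FPKM. BIM is made in several splice forms of different potency, but the accessions in the table did not let the listed transcripts be tied to them. A transcript at 0 in 1 group and at 1 FPKM or more in the other occurred in 85 of 3102 compared genes with several transcripts (2.74%). Since a listed 0 may be an estimate that failed, how the sum is divided within Bcl2l11 is less certain than the sum.

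**Figure D3:**
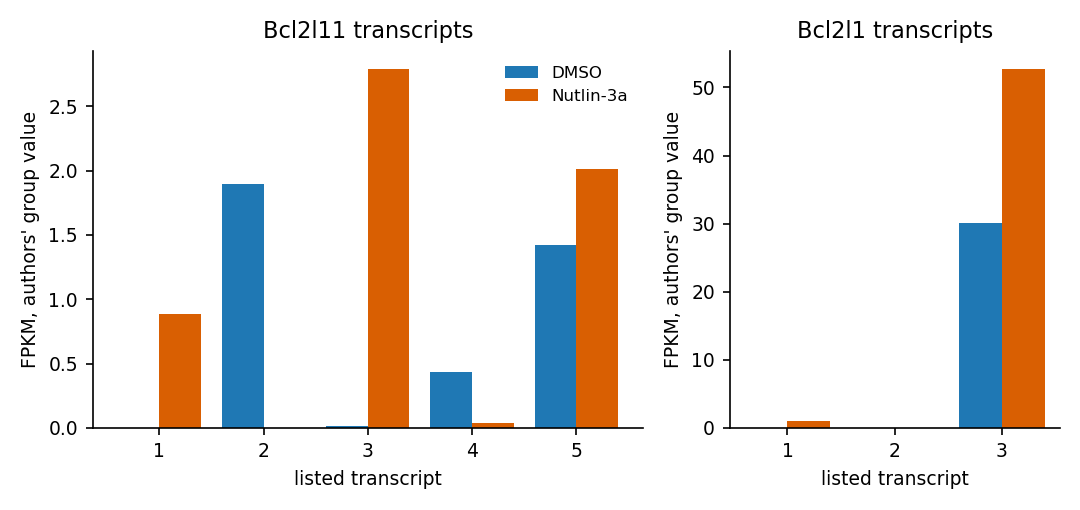
FPKM of each listed transcript of Bcl2l11 (left) and Bcl2l1 (right), numbered in the order of the table's identifiers, with DMSO and Nutlin-3a side by side. Transcripts 2 and 3 of Bcl2l11 trade places (0 and 2.79 FPKM with Nutlin-3a, 1.89 and 0.0104 FPKM with DMSO), while transcript 3 of Bcl2l1 holds nearly all of that gene's sum in both groups.

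None of the 3 anti-apoptotic genes was called in either direction, and all 3 had a log2 ratio above 0, that of Bcl2 by a margin that some scalings turned. Bcl2l1, which encodes BCL-XL and, by an alternative splice, the pro-apoptotic BCL-XS, had 53.8 FPKM with Nutlin-3a and 30.1 FPKM with DMSO. This was 1.78-fold higher, with a log2 ratio of 0.81, and the fold was the same as that of Bax to 3 digits: there were 12.2 FPKM of Bax for each FPKM of Bcl2l1 in Nutlin-3a and 12.3 in DMSO. One transcript held 98.1% of the Bcl2l1 sum in Nutlin-3a and more than that in DMSO (52.7 and 30.1 FPKM). Another stood at 1.02 FPKM with Nutlin-3a and 0 with DMSO. The listed Bcl2l1 model (chromosome 2, 152754173 to 152831728) also reaches over Cox4i2, a cytochrome c oxidase subunit gene that was listed at 0.963 and 0 FPKM.

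Mcl1, whose short-lived protein restrains Bak1 in particular, had 24.1 FPKM with Nutlin-3a and 21.6 FPKM with DMSO, a log2 ratio of 0.15 (chromosome 3, 95658721 to 95663178). Bcl2, the founding member of the family, was near the minimum level with 1.22 and 1.17 FPKM, a log2 ratio of 0.03 (chromosome 1, 106538178 to 106714290). Its sign turned under a correction for GC content, where it was -0.15, and under quantile normalization, where it was -0.13. Its pair of transcripts had 0.781 and 0.586 FPKM, and 0.434 and 0.586 FPKM.

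Counted over the 9 genes, 1 was called higher and 1 lower at 2-fold, against 6.62% and 6.14% of all genes compared. At 1.5-fold, 3 were higher (Bbc3, Bax and Bcl2l1) and 3 lower (Bok, Bid and Bak1), against 17.8% and 15.2% of all genes. The value of Bak1 is uncertain, as said above. The 3 genes higher at 1.5-fold were those whose windows are printed above. This overlap was seen after the mismatch limit had been chosen with these ratios known, and was not tested. It depends on that limit. With at most 4 mismatches Mcl1 and a Bcl2l11 start would also match, and 40.4% of all windows hold such a pair. The genes lower at 1.5-fold were all pro-apoptotic, as were 6 of the 9 genes and, among those higher, Bbc3 and Bax.

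Set side by side, the pro-apoptotic genes did not move as a class. Their log2 ratios ran from -1.78 (Bok) to 1.94 (Bbc3), with 3 above 0 and 3 below and a median of -0.06. Those of the 3 anti-apoptotic genes ran from 0.03 to 0.81 with a median of 0.15, and the median of all genes was 0.07. The pro-apoptotic median minus the anti-apoptotic one was -0.21, a description of 6 and 3 genes with no test. Over the genes with a mean of at least 5 FPKM, which leaves out Bcl2l11 and Bcl2, the difference was -1.10. With 1 transcript per gene, that of highest mean, Bcl2 fell below the minimum level and was left out, and the difference was -0.62.

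Summed FPKM gave a second view of the same comparison and rested on Bax. The 6 pro-apoptotic genes summed to 732 FPKM with Nutlin-3a and 468 FPKM with DMSO, and the 3 anti-apoptotic genes to 79.1 and 52.95 FPKM. There were 9.25 FPKM of pro-apoptotic transcript for each FPKM of anti-apoptotic transcript in Nutlin-3a and 8.85 in DMSO. The ratio between the groups was 1.05 and holds for this choice of genes only. Bad, a BH3-only gene outside it, had 69.4 FPKM with Nutlin-3a and 101 FPKM with DMSO. It was left out of the sums, as were the other family genes described below. Bax was 90.0% of the pro-apoptotic sum in Nutlin-3a and 78.9% in DMSO, and Bcl2l1 was 67.9% and 56.9% of the anti-apoptotic sum. Without Bax and Bcl2l1 the direction turned, with 2.90 in Nutlin-3a and 4.33 in DMSO. For the 3 chosen BH3-only genes alone, without Bad, the ratio was 0.673 in Nutlin-3a and 1.07 in DMSO. Bid, the most abundant of these 3, was lower in Nutlin-3a, and Bbc3 was higher from a low level.

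**Figure D4:**
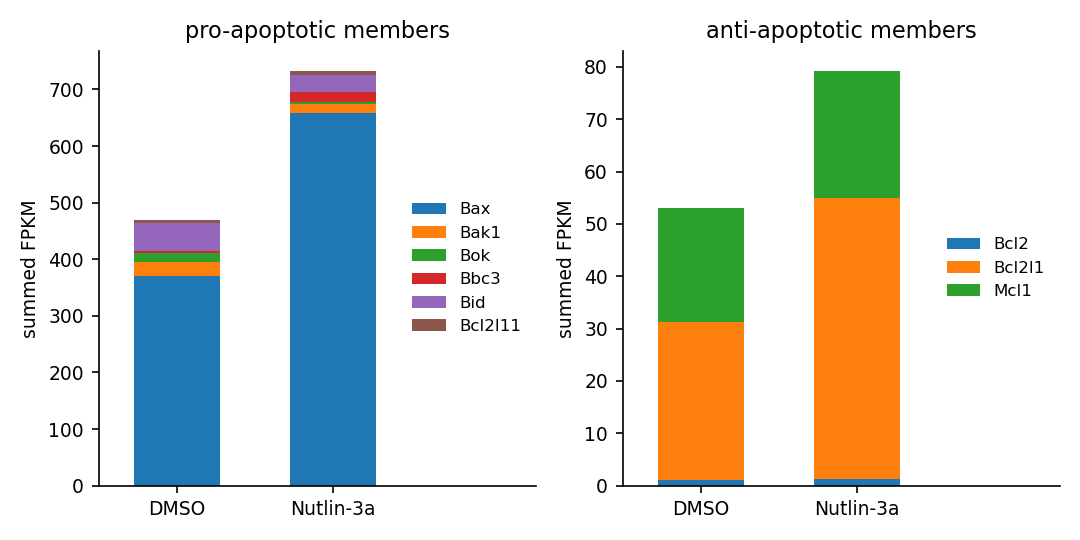
Stacked FPKM of the 6 pro-apoptotic genes (left) and the 3 anti-apoptotic genes (right) in both groups, on axes of different height that start at 0. Both stacks are taller in Nutlin-3a (732 against 468 FPKM and 79.1 against 52.95 FPKM), and Bax and Bcl2l1 make up most of them.

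Of other genes of the family, 1 passed the limit, where 6.62% of all genes compared were called higher and 6.14% lower. Of 15 listed, 10 had rows and 8 could be compared: none was called higher and 1 was called lower, with a median log2 ratio of -0.14. Ratios were above 0 in 4 and below 0 in 4, but those of Bnip3l and Bcl2l13 changed sign with quantile normalization (-0.01 and -0.00016), and that of Bnip3l also with GC correction (-0.11). The gene called lower was Bmf, a BH3-only gene whose product is held at the cytoskeleton (0.814 against 3.31 FPKM, 4.07-fold lower). Bad, the BH3-only gene whose product is switched off by growth factor signals, had 69.4 FPKM with Nutlin-3a and 101 FPKM with DMSO, and was second only to Bax in level within the family. Bcl2l12 had 7.85 against 13.1 FPKM and Bcl2l2, which encodes the anti-apoptotic BCL-W, 2.50 against 3.34 FPKM. Bcl2l13 (3.06 against 2.75 FPKM), and the mitophagy receptor genes Bnip3 (28.3 against 24.0 FPKM) and Bnip3l (14.8 against 14.5 FPKM), differed little. Bcl2l15 was listed at 1.99 and 0.684 FPKM, a log2 ratio of 0.83 that passed the limit with a smaller pseudocount. Bik and Bcl2l14 were below the minimum level.

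Downstream of the pore, single genes passed the limit in both directions. Of all genes compared 6.62% were called higher and 6.14% lower, and lists this short cannot be set apart from those shares. Of 5 genes of proteins released from mitochondria, Cycs, the cytochrome c gene, was 2.56-fold higher in Nutlin-3a (78.03 against 30.5 FPKM), and Endog, a nuclease gene, 5.02-fold lower (1.20 against 6.003 FPKM). Of 7 apoptosome and caspase genes, 1 was called higher and none lower, with a median log2 ratio of 0.58. It was Apaf1, the scaffold that cytochrome c activates, at 9.24 against 2.67 FPKM (3.47-fold). None of 5 caspase inhibitor genes was called, with a median of -0.41; the most abundant were Birc5, or survivin (119.6 against 228 FPKM), and Birc2 (6.78 against 9.36 FPKM). Corrected for GC content, Birc5 passed the limit at -1.04. Birc3 was 2.10-fold lower in plain FPKM (2.49 against 5.23 FPKM), with a log2 ratio of -0.83, and passed the limit at -1.04 with a pseudocount of 0.1. None of the 3 channel genes of the outer membrane was called, with Vdac2 at 161 against 171 FPKM and Vdac1 at 131 against 97.3 FPKM.

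Genes that control the members or share their p53 link were listed for comparison. The shares over all genes compared were 6.62% called higher and 6.14% called lower. Of 7 genes that act on the members' transcription, binding or turnover, 2 were called higher and none lower (median 0.21). They were Foxo3, a transcription factor known to activate Bcl2l11 and Bbc3 (3.13 against 0.314 FPKM), and Fbxw7, a ubiquitin ligase subunit known to target MCL1 (14.6 against 3.99 FPKM). Trp53 had 63.1 against 54.5 FPKM. Of 9 p53-linked apoptosis genes outside the family, all 8 that could be compared were called higher, with a median log2 ratio of 1.99. The list was chosen with earlier results of these data known, so its direction is no independent evidence. Its highest ratios were those of Trp53inp1 (38.4 against 2.62 FPKM), Ei24 (86.0 against 17.2 FPKM), Aen, an exonuclease gene (74.7 against 16.0 FPKM), and Pidd1, a scaffold for caspase-2 (4.23 against 0.256 FPKM). Within the family only Bbc3, with a log2 ratio of 1.94, lay near that median, a value that depends on how the list was chosen.

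**Figure D5:**
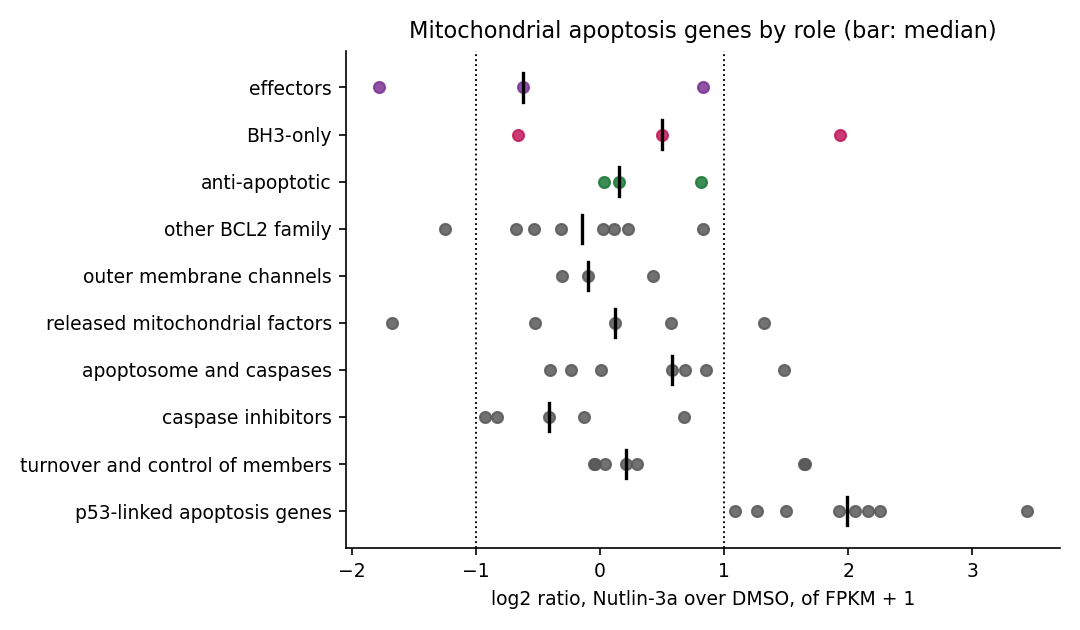
Log2 ratios of FPKM + 1 (Nutlin-3a over DMSO) of the compared genes of each list, 1 point per gene, with a bar at the list's median and dotted lines at the 2-fold limits. Points of the family lists lie on both sides of 0, while all 8 points of the p53-linked apoptosis genes lie past the upper limit. The lists were chosen with earlier results of these data known.

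The genes next to the members gave a local comparison. Of 18 nearest protein-coding neighbours, 1 on each side of each member, 16 could be compared. None was called higher and 1 was called lower, with a median log2 ratio of 0.10. Among all genes compared 6.62% were called higher and 6.14% lower, so 1 of 16 lies near that share. The neighbours of Bbc3, Ccdc9 (28.6 against 41.9 FPKM) and Sae1 (70.3 against 74.9 FPKM), and those of Bok, Stk25 (15.6 against 14.4 FPKM) and Thap4 (17.0 against 21.3 FPKM), lay within the limit. The neighbour called lower was Itpr3, a calcium channel gene beside Bak1 (6.89 against 16.2 FPKM). Id1, beside Bcl2l1, had 578 against 373 FPKM, a log2 ratio of 0.63. The ratios farthest from 0 among the other neighbours were those of Adamtsl4 beside Mcl1 (0.811 against 2.32 FPKM, -0.87) and Kdsr beside Bcl2 (5.20 against 2.77 FPKM, 0.72). The remaining neighbours compared, beside Ftl1 and Bcl2l13 above, were Zbtb9, Mical3, Bub1, Phlpp1, Tpx2 and Ensa, with log2 ratios from -0.46 (Ensa) to 0.42 (Zbtb9). Of those not compared, Dhdh beside Bax was listed at 0.0451 FPKM with Nutlin-3a and at 0 with DMSO, and Spdye4c beside Bcl2l11 was not analysed here.

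Ratios moved with GC content across all genes (Spearman rho -0.228 over 9935 genes, which are not independent replicates). The Bbc3 transcripts had 68.0% GC and those of Bok 61.0%, the highest of the 9 genes. Corrected for GC content, the log2 ratio of Bbc3 was 2.18 and that of Bok -1.59, so both kept their side of the limit.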

How the data were processed

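Total RNA of 4 cultures, 2 per group, was extracted with TRIzol and sequenced from Illumina libraries, per the labels' protocols. The submitters' processing notes list TopHat2 2.0.11 and build mm10, without their roles. How transcripts were quantified and replicates combined is not given in the sources used here. Per transcript and group 1 FPKM value was deposited, per the file headers (24746 transcripts); the prefix DSM was read as DMSO, the only other group. A second pair of deposited columns was log2 of these FPKM, with deviations up to 0.0071, and was left aside. Starts, which the table counts from 0, are given counted from 1.

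FPKM was summed per symbol, and log2 ratios used a pseudocount of 1 FPKM, a minimum mean of 1 FPKM and a 2-fold limit. The planned limma fits need values per library and were not run. GC content came from GENCODE M21 transcripts (median per symbol, 96.2% of genes compared) and was corrected by lowess with a span of 0.3. Promoters and neighbours came from RefSeq tables of GRCm38.p6. Calls and corrections were also run on simulated data with known changes, which checks the code and not the calls made here. Python 3.11.15, pandas 2.3.3 and statsmodels 0.14.6 were used. The members and lists were chosen with earlier results of these data known. Named were all members, their transcripts of at least 1 FPKM in a group, compared family genes, genes whose listed model overlaps that of a member, nearest neighbours, and of each pathway list up to 4 genes past the limit by size of ratio or else the 2 most abundant; genes outside this rule were chosen after their values were seen.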

Additional observations from a re-analysis of the deposited data

How the results depend on the processing

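No paired analysis was possible because the table gives 1 value per group and none per library, and for the same reason no replicate could be left out. Against 8 alternatives (pseudocounts of 0.1 and 0.5 FPKM, no minimum level, a mean of at least 5 FPKM, upper-quartile scaling, quantile normalization, GC correction and the transcript with the highest mean), 68 of 69 log2 ratios of the members kept their side of the 2-fold limit. The exception was Bax, at 1.01 with GC correction, which raised the members called higher to 2. A 1.5-fold limit gave 3 higher and 3 lower. Bbc3 ranged from 1.87 to 2.18 and Bok from -1.99 to -1.59. The difference in medians moved to -1.10 with a mean of at least 5 FPKM and to -0.62 with the transcript of highest mean, both of which test fewer or other values. The ratio of summed pro-apoptotic over anti-apoptotic FPKM between groups was reversed, at 0.670, without Bax and Bcl2l1. Of 332 ratios of the other genes, 326 kept their side. Both counts include ratios that could not move. A change of the minimum level alone leaves every ratio as it was, and so does the choice of transcript for a gene listed with 1. Casp9 was reversed, from -0.41 to 1.05, with the transcript of highest mean, where Siva1 fell inside the limit at 0.97; the cause was not tested. No scaling moved the median of all genes by 0.1. Over all genes the split of calls was 684 higher and 634 lower, and 606 and 711 after quantile normalization. Depth per library is unknown, so values near 1 FPKM, such as those of Bcl2, carry an error of unknown size.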
